A study of Sus scrofa with 12 samples.

Results

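Cytosolic ribosomal protein genes were examined in the endometrium, the glandular lining of the uterus, of 12 sows on Day 14 after insemination. Members were all genes with a probe set that carried exactly 1 symbol beginning with RPL, RPS or RPLP and a digit, or the symbol RPSA, without the RPS6 kinases. The rule found 96 probe sets for 64 genes, of 6765 genes with a single symbol on the array, and each gene was represented by its brightest set, judged by the mean over the 12 arrays. The label fitted 58 of the 64, which encode structural proteins of the ribosome, 34 of the large and 24 of the small subunit. The other 6 had matching symbols only: RPL22L1, RPL26L1, RPL36AL and RPS27L are paralogues of ribosomal proteins, RPL7L1 is a relative of RPL7, and RPS19BP1 encodes a protein that binds RPS19. They are described apart as paralogues and others. Of 77 standard names of structural proteins that fit the rule, 19 had no single-symbol probe set and were not analysed here, among them RPL10, RPL36A, RPS3 and RPS14.

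Of the 12 sows 6 were pregnant, and the 6 non-pregnant sows had been inseminated with inactivated semen. Each group held 3 Yorkshire and 3 Landrace animals, so the 4 groups of 3 were non-pregnant Yorkshire, pregnant Yorkshire, non-pregnant Landrace and pregnant Landrace. The uteri were flushed, and endometrium without the muscle layer was sampled at several levels of both horns and measured on 1 Affymetrix porcine array per sow. The labels used here give no age and mention no pooling of animals.

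The ribosome is the particle that translates messenger RNA, and its cytosolic form is built from ribosomal RNA and a fixed set of proteins, most of them present once per particle. The genes of these proteins carry a terminal oligopyrimidine (TOP) tract at the start of their messenger RNA, through which growth signals set how much of it is translated, so that the level of the RNA and the output of protein can part. In early pregnancy the endometrium of the pig turns to secretion for the unattached conceptuses, a state that depends on protein synthesis. Several members also act away from the ribosome: RPL5, RPL11 and RPL23 can bind the p53 regulator MDM2, and RPSA also serves as a laminin-binding protein at the cell surface.

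All values are log2 expression values that the authors deposited after RMA, a method that makes the distributions of the arrays alike. A difference of 1 is a doubling, and every difference is relative to the rest of the array, so a change in total RNA or in the number of ribosomes per cell could not be measured. In whole tissue, fewer cells of a type and less RNA per cell cannot be told apart. Errors after ± are the SD over sows for levels and the standard error of the limma fit for differences.

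The structural genes gave some of the brightest signals on the arrays. Of the 58, 52 had a mean above 12, and each of these lay at or above percentile 99.2 of the probe sets on every array. They made up 52 of the 157 probe sets with a mean above 12. A probe set's brightness depends on its probes, so these positions are not an order of abundance. RPS20 (13.65), RPS18 (13.59) and RPS29 (13.46), all of the small subunit, had the highest means. The lowest belonged to RPL30 (3.84), RPL26 (3.97) and RPS15A (3.99), which sat under the lowest quartile mark of all 12 arrays (4.58 to 4.71). A value so low holds mostly background, and these 3 probe sets give no usable level for genes that every cell uses. The remaining 3 structural genes, RPL37, RPLP2 and RPL13, lay between 8 and 12.

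The bright members varied little between sows. The median SD over the 12 sows was 0.109 for the 52 structural genes with a mean above 12. It was 0.151 for the 101 probe sets of that brightness that belong to no member gene, and 0.191 for all probe sets. The 101 leave out 4 second probe sets of members and still hold sets of RPL10 and RPL35A that carry a second symbol. RPL7, of the large subunit, had the smallest SD of the 64 at 0.035, followed by RPS24 and RPS18 at 0.062. The largest SDs were those of RPL22L1 (0.29), RPS27L (0.23) and RPLP2 (0.23), an acidic protein of the stalk that recruits translation factors.

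Before the comparisons, some facts of the whole set bear on the results. The difference between the 3' and 5' control probe sets of GAPDH, a sign of how far labelled RNA reached toward the 5' end, was 1.49 ± 0.13 in Yorkshire and 1.07 ± 0.14 in Landrace sows (n = 6 each), with no overlap between the breeds. The same measure for actin was 1.27 ± 0.18 and 1.09 ± 0.10 and overlapped. For GAPDH, pregnant sows had 1.36 ± 0.20 and non-pregnant sows 1.20 ± 0.29, with overlap, and for actin 1.17 ± 0.21 and 1.19 ± 0.13. Non-pregnant sow 7 and pregnant sow 12 were the 2 animals whose arrays correlated more closely with the other status than with their own (mean r of 0.969 against 0.966, and 0.982 against 0.976, across probe sets). Results are given without them where that changes a call. Non-pregnant sow 11 and pregnant sow 12, both Yorkshire, had each other as nearest array (r = 0.992), and no fit left out both. The array nearest to pregnant sow 8 was that of non-pregnant sow 5 (r = 0.983). Genes of several cell type lists were called for pregnancy too, where 3.95% of all probe sets were higher and 3.94% lower. Of 9 measured endothelial markers 7 were higher (median 0.65), and of 8 stromal fibroblast markers 4 were higher and 1 lower. Of 8 smooth muscle markers 1 was higher, and of 10 epithelial markers 1 was higher and 2 lower. The mean of the endothelial list, taken per sow as a difference from each gene's mean, ran from -0.61 to -0.10 in non-pregnant and from 0.063 to 0.61 in pregnant sows. For the epithelial list it ran from -0.052 to 0.22 and from -0.43 to 0.28. Of the 8 measured trophoblast markers 1 was lower, and the list reached 1.56 in 1 pregnant Landrace sow against at most -0.033 in non-pregnant sows. None of 10 leukocyte, 3 erythrocyte and 12 cell cycle genes was called for pregnancy (limma), and 0, 1 and 2 of them had an unadjusted p under 0.05. The leukocyte list reached 1.31 in 1 non-pregnant Landrace sow. The part of these cell types in the results below was not tested.

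The first comparison asked which members differed between pregnant and non-pregnant endometrium, with breed as a term in the fit. None of the 58 structural genes was called at adjusted p under 0.05 in either direction (limma), and none had an unadjusted p under 0.05. The call rate over all 23999 probe sets was 3.95% higher and 3.94% lower in pregnant sows, and 5574 of them had an unadjusted p under 0.05. For the 55 structural genes that gave a signal, the 95% intervals of the differences lay within 0.5 log2 units of 0, the widest bounds being -0.32 for RPL23 and 0.30 for RPL14. The 3 at background, RPL26, RPL30 and RPS15A, set no bound. The structural differences ran from -0.15 to 0.12 with a median of -0.040, and 44 of 58 were below 0, while the median over all probe sets was 0.010 and 52.8% were above 0. Normalizing again by cyclic loess turned the median of all 64 members from -0.045 to 0.0081, so no direction of the family as a whole is given. No structural gene was called under any of the 23 alternative settings.

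**Figure D1:**
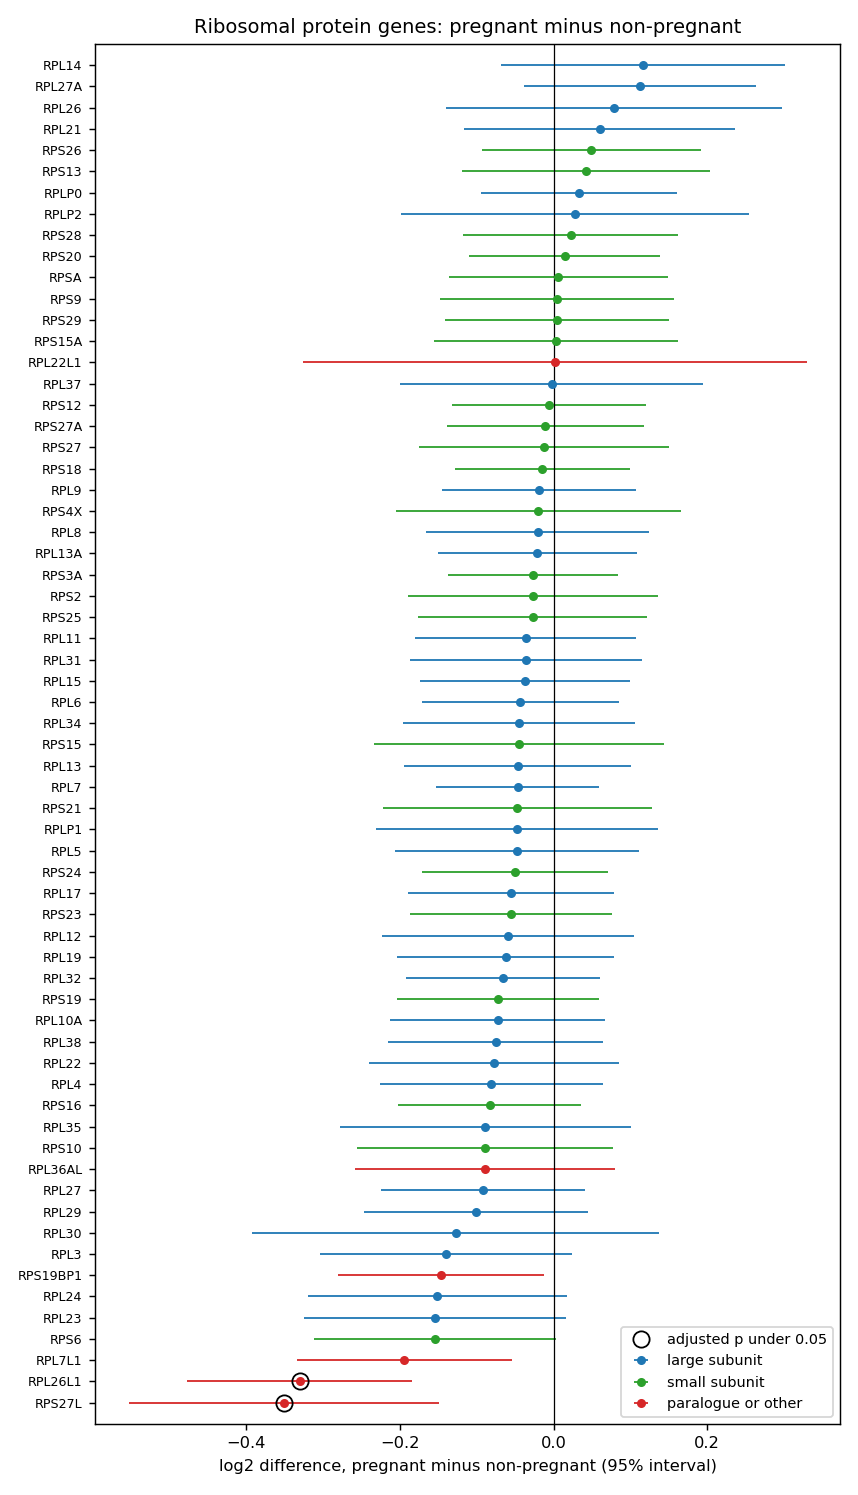
Log2 difference between pregnant and non-pregnant sows (x axis, point with 95% interval of the limma fit, n = 6 per group) for the 64 genes (y axis), coloured by class. The 58 structural genes lie between -0.15 and 0.12, and both circled genes with an adjusted p under 0.05, RPL26L1 and RPS27L, are paralogues.

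Among the structural genes nearest to a difference were RPS6, whose protein is the best-known ribosomal target of S6 kinase in the mTORC1 pathway, and RPL23. RPS6 ranged from 12.72 to 12.87 in non-pregnant sows, with a median of 12.77, and from 12.51 to 12.88 in pregnant sows, with a median of 12.57. Its ranges overlapped, because pregnant sow 8 exceeded the whole non-pregnant range, and the difference was -0.15 ± 0.073 (adjusted p = 0.227, limma). RPL23 had a difference of -0.15 ± 0.078 (adjusted p = 0.269, limma). On the other side RPL27A, of the large subunit, ranged from 12.45 to 12.84 in non-pregnant and from 12.72 to 13.01 in pregnant sows, a difference of 0.11 ± 0.069 (adjusted p = 0.374, limma). RPL14 differed by 0.12 ± 0.085, RPL26, at background, by 0.079 ± 0.10 and RPS26 by 0.049 ± 0.065, and none of these 3 was called.

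Members with known roles of their own were not called either. RPL5 and RPL11, which travel with 5S ribosomal RNA and can bind MDM2, differed by -0.048 ± 0.073 and -0.036 ± 0.066. RPSA differed by 0.0065 ± 0.065, and RPL13A, which in human myeloid cells can leave the ribosome after interferon-gamma and block translation, by -0.021 ± 0.059. RPS27A, made as a fusion with ubiquitin, differed by -0.010 ± 0.059. The stalk proteins RPLP0, RPLP1 and RPLP2 differed by 0.033 ± 0.059, -0.048 ± 0.084 and 0.028 ± 0.10. RPS19, RPS24 and RPS26, in which mutations cause Diamond-Blackfan anaemia in humans, differed by -0.073 ± 0.060, -0.050 ± 0.056 and 0.049 ± 0.065. RPL38, which in mice is needed for patterning of the axial skeleton, differed by -0.075 ± 0.064, and RPS4X by -0.020 ± 0.085. All of these intervals include 0. They limit the change in the deposited values to less than 0.5 log2 units and do not show that it was 0. Whether such bright probe sets follow the full change of their RNA was not tested.

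Of the 64 members 2 passed the test, RPL26L1 and RPS27L, and both were lower in pregnant sows. That share is no higher than the 3.94% of all probe sets called lower. RPL26L1, a close paralogue of the large-subunit gene RPL26, ranged from 9.21 to 9.48 in non-pregnant sows, with a median of 9.36. In pregnant sows it ranged from 8.87 to 9.14, with a median of 9.08. The groups did not overlap, which held for 1.4% of all probe sets in this direction and for no other member. The difference was -0.33 ± 0.067 (adjusted p = 0.0144, limma, all 6 pregnant sows below the mean of the others). RPL26 and RPL26L1 are nearly alike in sequence and the RPL26 probe set was at background, so no ratio of the paralogue to its parent could be taken, and what RPL26 transcripts add to this signal was not tested.

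RPS27L, a paralogue of the small-subunit gene RPS27 that p53 induces in human cells, ranged from 9.89 to 10.41 in non-pregnant sows, with a median of 10.12. In pregnant sows it ranged from 9.67 to 9.96, with a median of 9.76. Only non-pregnant sow 11 lay within the range of the pregnant sows, and pregnant sow 2 was the highest of its group. The difference was -0.35 ± 0.093 (adjusted p = 0.0399, limma, all 6 pregnant sows below the mean of the others). Its probe set has the suffix that Affymetrix gives to sets whose probes can match several transcripts.

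The other 4 of this class did not pass. RPL7L1, whose yeast relatives act in maturation of the large subunit, ranged from 9.35 to 9.70 in non-pregnant and from 9.16 to 9.56 in pregnant sows, and only pregnant sow 10 lay above 9.31. Its difference was -0.19 ± 0.064 (adjusted p = 0.0863, limma). RPS19BP1, a nucleolar protein also known as a regulator of the deacetylase SIRT1, ranged from 7.99 to 8.33 and from 7.84 to 8.11, with a difference of -0.15 ± 0.061 (adjusted p = 0.171, limma). RPL36AL differed by -0.089 ± 0.078 and RPL22L1 by 0.0019 ± 0.15. Of these 6 genes 4 had an unadjusted p under 0.05, against 0 of 58 structural genes and 5574 of all 23999 probe sets. These are counts and were not tested. The classes also differed in brightness: the 6 had means from 8.07 to 11.59, while 52 of the 58 lay above 12.

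**Figure D2:**
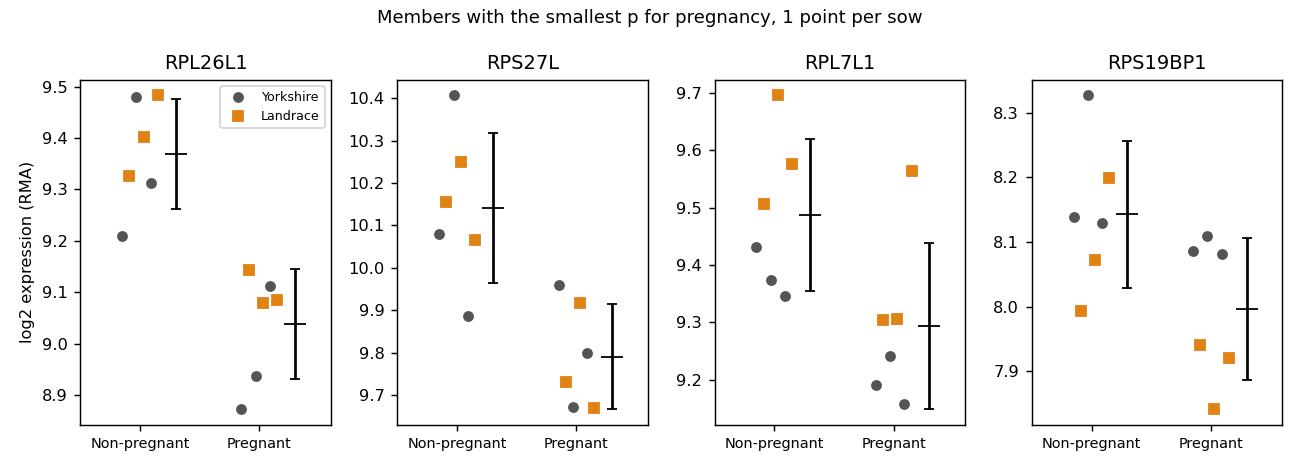
Log2 expression (y axis) of RPL26L1, RPS27L, RPL7L1 and RPS19BP1 in each non-pregnant and pregnant sow, grey circles for Yorkshire and orange squares for Landrace, with the mean and SD of each group (n = 6) beside the points. RPL26L1 shows no overlap between the groups, while the other 3 genes overlap.

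The call of RPL26L1 was kept when each of the 12 sows was left out in turn (adjusted p from 0.00929 to 0.0398, limma). That of RPS27L was lost in 8 of the 12, those that omitted 1 of sows 1, 3, 4, 5, 6, 7, 9 and 10 (adjusted p up to 0.0897, limma). It was also lost without sows 7 and 12 together (0.0751). With the GAPDH 3' to 5' difference as a covariate, the difference of RPL26L1 was -0.35 ± 0.094 (adjusted p = 0.126, limma) and that of RPS27L was -0.19 ± 0.11 (0.379, limma). In that fit no probe set of the 23999 was called for pregnancy or for breed.

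For 3 pairs in which both probe sets gave a signal, the paralogue was set against its parent within each array, which asks whether their ratio changed. The log2 difference of RPS27L from RPS27 was -2.87 ± 0.070 in non-pregnant and -3.21 ± 0.12 in pregnant sows, with no overlap. Its change was -0.34 (exact permutation within breed, two-sided p = 0.005, the smallest that the 400 arrangements allow, and 0.015 after Benjamini-Hochberg adjustment over the 3 pairs). RPS27 itself differed by -0.012 ± 0.075. The difference of RPL7L1 from RPL7 changed by -0.15 (exact permutation p = 0.05, adjusted 0.075, lower in 5 of 6 pregnant sows), and that of RPL22L1 from RPL22 by 0.079 (exact permutation p = 0.63, adjusted 0.63). These pairs were chosen after the values of the genes had been seen, so the p-values are descriptive. Such a ratio shows unequal change of the signals within an array, not which of the genes changed. Whether bright sets such as those of the parents follow the full change of their RNA was not tested. The ratio of the signals may therefore part from that of the transcripts.

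Other genes of the pathway were counted from lists. FAU, which encodes the small-subunit protein RPS30 as a fusion, differed by -0.074 ± 0.064 and RACK1, a scaffold on the small subunit, by -0.090 ± 0.072, and neither was called. Of 17 other measured TOP genes of translation, 0 were called for pregnancy (limma), as under each of the alternatives run, with a median of -0.027 and 3 at an unadjusted p under 0.05. Of 44 measured genes of ribosome biogenesis, the factors that process ribosomal RNA and assemble the subunits, 12 were lower in pregnant sows and 0 higher, with a median difference of -0.21. Over all probe sets 3.94% were lower. NHP2, a protein of the H/ACA particles that guide pseudouridine formation, ranged from 8.64 to 9.03 in non-pregnant and from 7.65 to 8.41 in pregnant sows. It did not overlap between the groups, which held for 1.4% of all probe sets in this direction, and differed by -0.85 ± 0.12 (adjusted p = 0.00517, limma). NOP16 and NIP7, both factors of large-subunit assembly, differed by -0.60 ± 0.097 and -0.49 ± 0.096, and these 3 calls were kept with each sow left out. The count of 12 depended on the sows: it was 5 without sow 3, 4 or 6, 7 without sow 2 or 9, 8 without sow 5 or 10, and 17 without sow 12. It was 0 with the GAPDH covariate.

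Of 8 measured genes of growth control 1 was called, EIF4E, where 3.94% of all probe sets were lower. It differed by -0.71 ± 0.12 (adjusted p = 0.00688, limma). EIF4E encodes the protein that binds the cap of messenger RNA. Its 6 pregnant sows (5.90 to 6.49) lay below the 6 non-pregnant sows (6.50 to 6.99), which held for 1.4% of all probe sets. The proteins of the mitochondrial ribosome, a separate particle, had 14 of 58 genes lower and 0 higher, with a median of -0.20, where 3.94% of all probe sets were lower. That count was 9 without sow 2, 3, 5 or 9, 22 with array weights and 0 with the GAPDH covariate. No difference between these lists and the cytosolic proteins was tested.

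The level of the structural genes as a group was also followed sow by sow, as the mean over the 55 that gave a signal of each gene's difference from its mean over the 12 sows. Non-pregnant sows ran from -0.096 to 0.084, with a median of 0.033, and pregnant sows from -0.11 to 0.14, with a median of -0.028. Pregnant sow 8, a Landrace, had 55 of 55 genes above their own mean, whereas Yorkshire pregnant sow 12 had 7 and Yorkshire non-pregnant sow 11 had 12. These 3 sows are the extremes of the mean over both subunits. Their large and small subunit means were 0.15 and 0.12 in sow 8, -0.11 and -0.10 in sow 12, and -0.095 and -0.098 in sow 11. In pregnant sow 4 the subunits lay on opposite sides of 0, at -0.062 and 0.010, while in every other sow they shared a sign. The group means, 0.018 ± 0.069 in non-pregnant and -0.018 ± 0.083 in pregnant sows, lay closer together than the sows within each group.

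**Figure D3:**
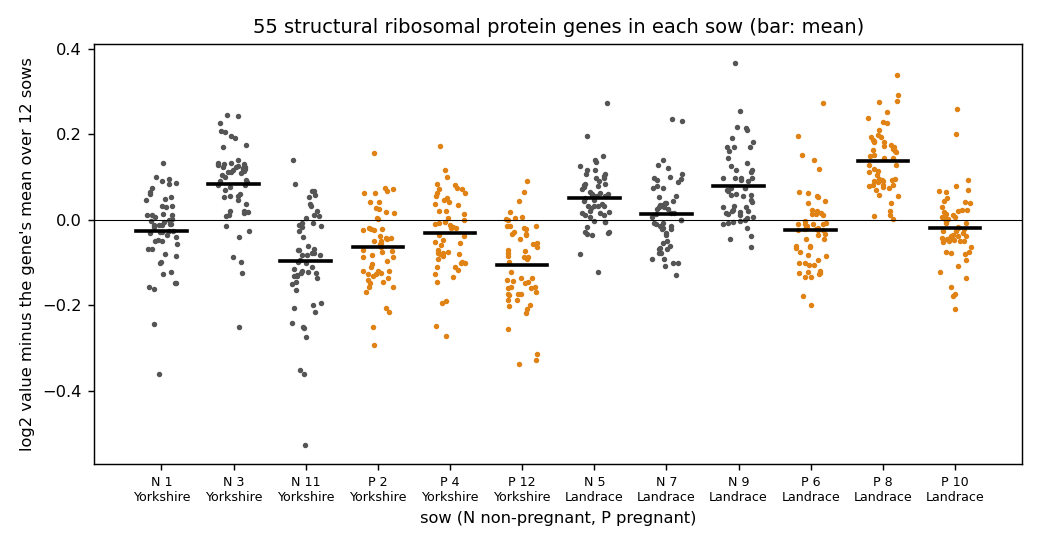
Log2 value minus the gene's mean over 12 sows (y axis) for the 55 structural genes that gave a signal, with 1 column of points per sow (x axis), grey for non-pregnant and orange for pregnant, and a bar at the mean of each sow. Pregnant sow 8 has all 55 points above 0, and sows 11 and 12 have the lowest bars, -0.096 and -0.11.

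The comparison of breeds asked which members differed between Landrace and Yorkshire sows, with pregnancy as a term in the fit. RPL19, of the large subunit, was the call among the 64, higher in Landrace, against 2.22% of all probe sets called higher and 2.93% lower. It ranged from 12.09 to 12.42 in Yorkshire, with a median of 12.27, and from 12.48 to 12.56 in Landrace, with a median of 12.50. The breeds did not overlap, and the difference was 0.25 ± 0.065 (adjusted p = 0.0451, limma, higher in 6 of 6 Landrace sows than the Yorkshire mean). The call was kept in 2 of the 12 fits that left out a sow, those without Yorkshire sow 11 or 12, and in the others the adjusted p reached 0.0887 (limma). RPS9, near the entry of the messenger RNA channel of the small subunit, was the other member with no overlap, which held for 1.24% of all probe sets in this direction. It ranged from 11.86 to 12.09 in Yorkshire and from 12.14 to 12.45 in Landrace, a difference of 0.24 ± 0.070 (adjusted p = 0.0686, limma).

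Several more members lay on the Landrace side without passing the test. RPL37 ranged from 8.13 to 8.41 in Yorkshire and from 8.32 to 8.76 in Landrace, with a difference of 0.33 ± 0.090 (adjusted p = 0.0554, limma). RPL38 differed by 0.23 ± 0.064 (adjusted p = 0.0597, limma), RPLP2 by 0.30 ± 0.10 (0.116) and RPL36AL by 0.25 ± 0.078 (0.0896). The second probe set of RPL38, with a mean of 8.68, went the other way, by -0.76 ± 0.30 (adjusted p = 0.172, limma). In that set Yorkshire sows 1 to 4 lay between 9.45 and 9.79, while Yorkshire sows 11 and 12 were at 8.17 and 7.95. The 6 Landrace sows ran from 8.12 to 8.46. RPLP2 was low in Yorkshire sows 11 and 12, at 10.97 and 11.18, while the other 10 sows lay between 11.34 and 11.77. Among members below 0 the smallest p were those of RPS19BP1 at -0.15 ± 0.061 (adjusted p = 0.188, limma), RPS18 at -0.084 ± 0.052, RPS20 at -0.054 ± 0.057 and RPS27A at -0.046 ± 0.059. Of the 64 members 49 were above 0, as were 52.3% of all probe sets, and the medians were 0.058 and 0.0080. After cyclic loess the median of the members was 0.028. An unadjusted p under 0.05 (limma) was seen for 16 members and for 4842 of all probe sets.

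**Figure D4:**
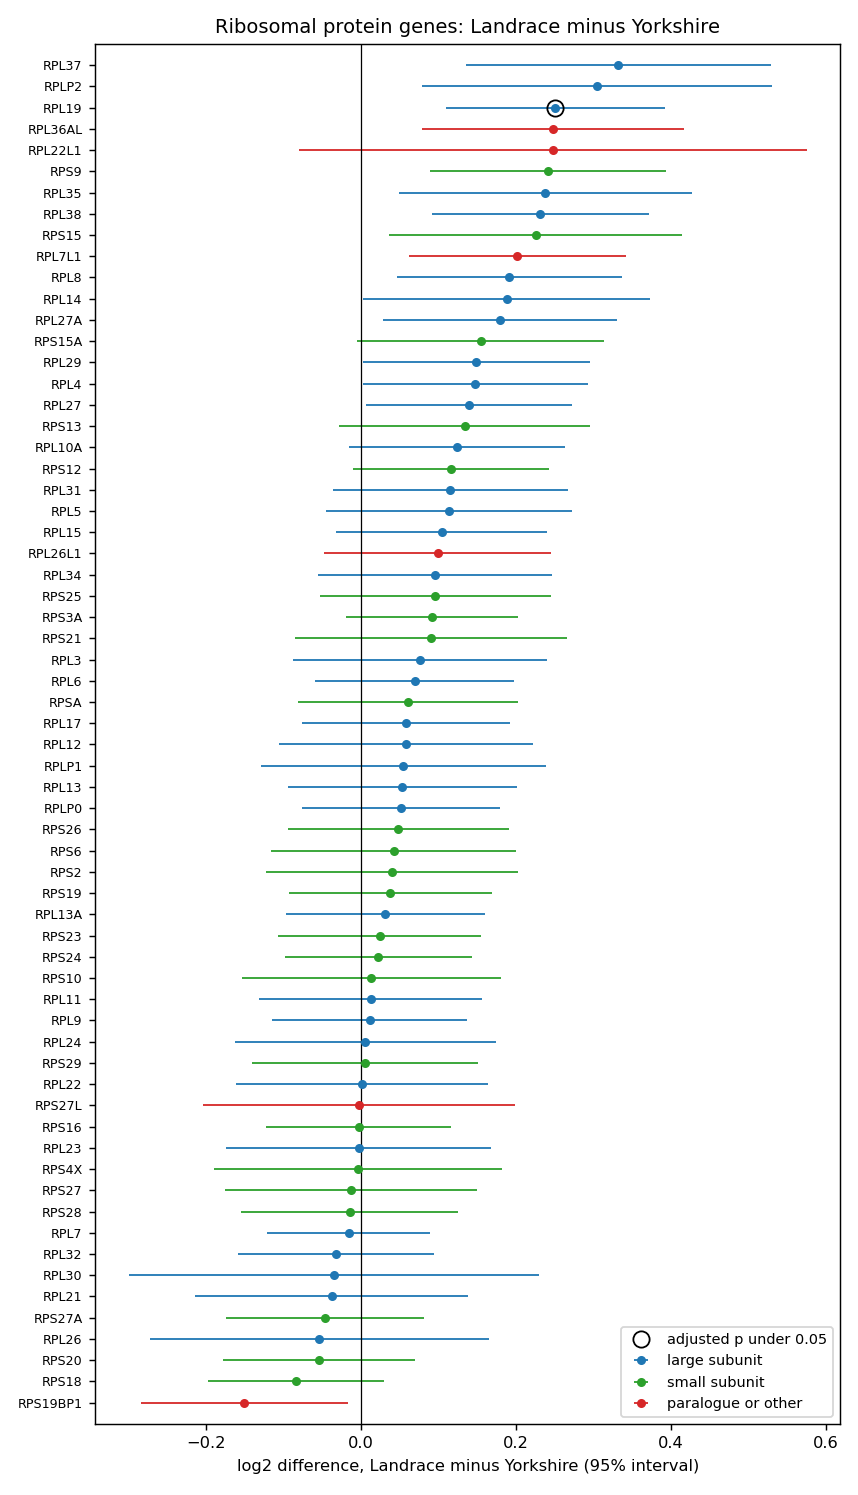
Log2 difference between Landrace and Yorkshire sows (x axis, point with 95% interval of the limma fit, n = 6 per breed) for the 64 genes (y axis), coloured by class. RPL19, circled, is the gene with an adjusted p under 0.05, and RPL37, RPLP2 and RPL19 have the highest differences at 0.33, 0.30 and 0.25.

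The GAPDH 3' to 5' difference separated the breeds without overlap, as given above, so that what this measure reflects and breed cannot be told apart for these members. With it as a covariate the median of the members was -0.019 and 0 were called. Single members moved either way in that fit: RPL19 had 0.45 ± 0.16 (adjusted p = 0.571, limma) and RPL37 0.60 ± 0.23 (0.586), while RPL38 had 0.096 (0.904). Among the other TOP genes 4 of 17 were higher in Landrace, against 2.22% of all probe sets. EEF1A1, the factor that delivers aminoacyl-tRNA, differed by 0.35 ± 0.087 (adjusted p = 0.0407, limma). EIF3K, a subunit of initiation factor eIF3, differed by 0.37 ± 0.081 (adjusted p = 0.0227, limma). BTF3, a chaperone subunit at the exit tunnel, differed by 0.30 ± 0.066 (adjusted p = 0.0219, limma), and EEF1D was the other call. Leaving out a sow gave 1 to 3 such calls, with 1 without sow 1, 10 or 11, and 2 remained, EEF1A1 and BTF3, without sows 7 and 12 together. The call of EEF1A1 was lost in 10 of the 12 fits that left out a sow, and EIF3K and BTF3 in 2 each. Of the 44 biogenesis genes 2 were higher in Landrace, against 2.22% of all probe sets. These were NMD3, the export adaptor of the large subunit, by 0.56 ± 0.12 and the nucleolar chaperone NPM1 by 0.37 ± 0.091. The NMD3 call was kept with each sow left out and without sows 7 and 12, whereas that of NPM1 was lost in 9 of the 12 fits (kept without sow 6, 8 or 11) and without sows 7 and 12.

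The effect of pregnancy was also fitted within each breed, 3 sows against 3 with a pooled spread. No member was called in Yorkshire, where 0% of all probe sets were called, or in Landrace, where 1.03% were. The unadjusted p was under 0.05 for 2 of 64 members in each breed, RPL26L1 and RPS27L. RPL26L1 differed by -0.36 ± 0.099 in Yorkshire and -0.30 ± 0.099 in Landrace (adjusted p = 0.144 and 0.168, limma), and RPS27L by -0.32 ± 0.14 and -0.39 ± 0.14 (0.299 and 0.198, limma). Without pregnant sow 12, RPL26L1 was called in Yorkshire. The interaction, the effect in Landrace minus that in Yorkshire, was called for 0% of all probe sets (limma), and an unadjusted p under 0.05 was seen for 963 of them and for 0 of 64 members. Its estimates for members ran from -0.20 to 0.26, with a median standard error of 0.14. RPS4X (0.26 ± 0.16), RPL36AL (0.21 ± 0.15), RPS15A (0.20 ± 0.14) and RPS9 (0.19 ± 0.14) had the smallest p.

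A further set of signals came from second probe sets, which 24 of the 64 genes have. For 8 genes, RPL6, RPL12, RPL13A, RPL17, RPL23, RPL24, RPL32 and RPS6, the second set carries the same sequence cluster number as the bright one and the opposite strand letter in its name. The letter was taken from the name, and the orientation of the probes was not checked. These dimmer sets were higher in Landrace by 0.39 to 0.86 in all 8 genes (median 0.68), and 5 were called: RPL6, RPL13A, RPL17, RPL24 and RPL32. Their bright partners differed by -0.032 to 0.070. The second set of RPL6 ranged from 5.49 to 6.77 in Yorkshire, with a median of 6.23, and from 6.67 to 7.25 in Landrace, with a median of 7.02, a difference of 0.86 ± 0.19 (adjusted p = 0.0214, limma). That of RPL32 ranged from 6.55 to 7.53 and from 7.74 to 7.93 and did not overlap, a difference of 0.76 ± 0.16 (adjusted p = 0.0166, limma).

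Over all 379 pairs of this kind on the array, 284 of the dimmer sets were above 0 for breed, with a median of 0.059. Of the 379, 2.64% were called higher in Landrace, which is 10 sets. In 4 other pairs whose bright set had a mean above 12 the dimmer set was also higher in all 4, with a median of 0.60 and 1 call. The 8 sets moved together by sow. As a mean of differences from each set's own mean they lay at -0.82 in Yorkshire sow 11 and -0.96 in Yorkshire sow 12, between -0.17 and 0.13 in the other 4 Yorkshire sows, and between 0.20 and 0.46 in the 6 Landrace sows. The count of 5 calls was 4 without sow 12, 3 without sow 1 or 9, 2 without sow 6, 7 or 8 and 1 without sow 5, 10 or 11. Without sows 7 and 12 together it was 3, and the 8 differences ran from 0.16 to 0.68. With the GAPDH covariate none of the 8 was called, and their differences ran from -0.56 to 0.42. None of the 8 was called for pregnancy. Whether these signals come from transcripts of the opposite strand or from labelling of the abundant sense transcript was not tested. Of the 24 other second sets 11 were above 0 for breed, with a median of -0.0024. Among these 24 sets 1 was called for breed, that of RPS27 at 0.58 ± 0.11 (adjusted p = 0.0102, limma, called with each sow left out and without sows 7 and 12), and 0 for pregnancy.

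**Figure D5:**
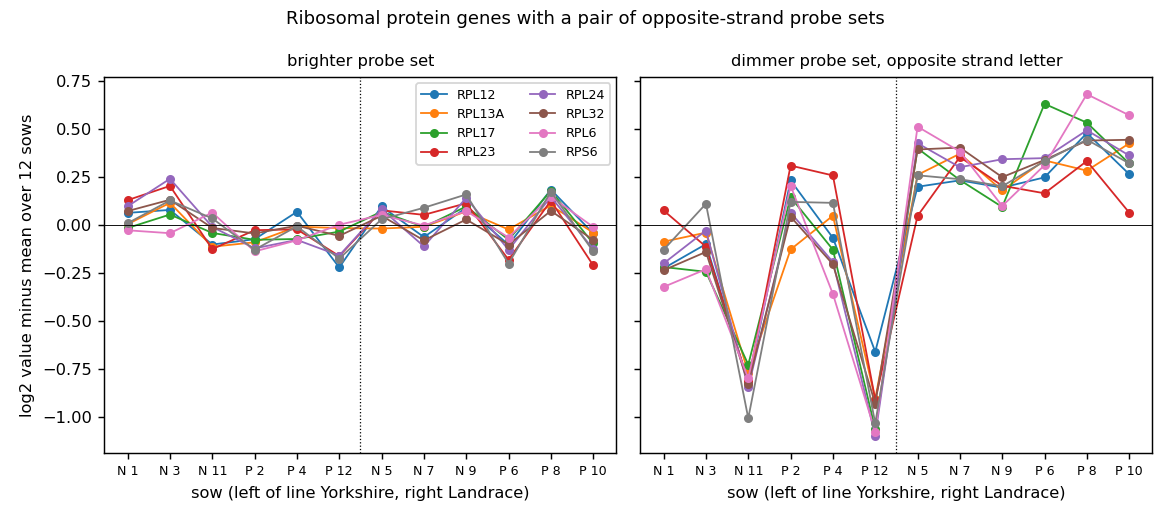
Log2 value minus its mean over 12 sows (y axis) in each sow (x axis, Yorkshire left and Landrace right of the dotted line, N non-pregnant, P pregnant) for the brighter (left panel) and the dimmer (right panel, opposite strand letter in the name) probe set of 8 genes. The dimmer sets lie at their lowest in Yorkshire sows 11 and 12 and above 0 in all 6 Landrace sows, while the brighter sets spread less around 0.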

How the data were processed

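The authors deposited log2 expression values per probe set, 1 array for each of 12 sows. The submitters' processing notes list RMA, affy and limma and give no versions. The members, gene lists and tests were chosen with earlier results of these data known. Symbols came from the platform annotation, and all 64 were found in the RefSeq gene table of Sscrofa11.1. No build was given for the array, so no coordinates are printed. Of 24123 probe sets, 124 manufacturer controls were left out.

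Differences were fitted over all 12 arrays, with pregnancy and breed as terms (9 residual degrees of freedom) or with 4 groups (8), by lmFit and eBayes of limma 3.58.1 (R 4.3.3), and all tests were two-sided. P-values were adjusted by Benjamini-Hochberg over 23999 probe sets, and a call is an adjusted p under 0.05. The fit was tested on simulated data. Named genes were the called members, those of smallest p in each direction, the extremes of level and SD, and a set of known roles. In pathway lists they were the called genes of smallest p. The number of arrays limits the precision. Each sow is 1 replicate. Alternatives were other normalizations, filters, variance models, covariates and probe set choices, and leaving out sows. The paralogue ratios and the probe sets with the opposite strand letter were added after seeing the data.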

Additional observations from a re-analysis of the deposited data

Results flagged for a closer look

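In 70 checks of groups of 6 sows, 5 sows lay further from the others of their group than Dixon's 95% limit allows, and chance alone flags about 1 in 20 groups. RPL26 was 3.78 in pregnant sow 6, against 4.05 to 4.08 in the other pregnant sows, all at background. RPL27A was 12.4 in non-pregnant sow 11, against 12.76 to 12.84. RPL7L1 was 9.56 in pregnant sow 10, against 9.16 to 9.31. RPS26 was 13.1 in pregnant sow 12, against 13.28 to 13.34. The mean difference of the structural genes was 0.138 in pregnant sow 8, against -0.105 to -0.0196 in the other pregnant sows.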

How the results depend on the processing

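For pregnancy, 2 of 64 members were lower, where 3.94% of all probe sets were. The count was 1 after cyclic loess, with the average of the within-breed contrasts and without sows 7 and 12, and 0 with the GAPDH covariate. With probe sets free of an x or s suffix it was 1 of 63 members. RPS27L was not tested there, because its single probe set has the suffix s. The count ranged from 1 to 2 with 1 sow left out. The median of members was below 0 in 22 of 23 alternatives and 0.0081 after cyclic loess. For breed, 1 of 64 members was higher, where 2.22% of all probe sets were. The count was 3 after median centring, 2 with dim probe sets left out or with array weights, and 5 with the mean of a gene's probe sets (RPL6, RPL17, RPL19, RPL32 and RPS27). For RPL6, RPL17, RPL32 and RPS27 that mean takes in dimmer second sets, which differed by 0.86, 0.74, 0.76 and 0.58. Their brightest sets differed by 0.070, 0.058, -0.032 and -0.012. The count for breed was 0 with the GAPDH covariate, without the pregnancy term and with the average of contrasts, and 0 to 1 with 1 sow left out. RPL19 was lost after cyclic loess, where RPL37 was called. The median of members was 0.038 to 0.080 with 1 sow left out and -0.0194 with the GAPDH covariate. Within Yorkshire 0 to 1 members were lower with 1 sow left out. The causes of the lost and gained calls were otherwise not tested. No paired analysis was possible because the groups share no replicate numbers. Probe sets at background, as for RPL26, RPL30 and RPS15A, carry no usable change.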

Other observations

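A further 8 probe sets carry a ribosomal protein symbol together with a second gene's and were left out of the members. The set for RPS15 and LOC100624113 was higher in Landrace sows by 0.52 ± 0.11 (adjusted p = 0.0167, limma), with 11.13 to 11.52 in Landrace and 10.57 to 11.06 in Yorkshire sows and no overlap. A dim set for LMLN and RPL35A was lower in pregnant sows, from 5.47 ± 0.15 to 5.09 ± 0.19 (adjusted p = 0.0261, limma, n = 6 per group). The bright set for the same pair of symbols, at 13.18 ± 0.077 and 13.08 ± 0.086, was not called. The bright set for ANAPC11 and RPL10 differed by 0.024 ± 0.054 for pregnancy and by 0.097 ± 0.054 for breed.

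The array also holds control probe sets for ribosomal RNA, which no comparison above uses. The 28S set was 10.58 ± 0.24 in non-pregnant and 10.62 ± 0.33 in pregnant sows, and the 18S set was 9.81 ± 0.48 and 10.10 ± 0.34, with overlapping ranges in both cases.

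Of the 101 probe sets with a mean above 12 that belong to no member gene, 8 were higher and 3 lower in pregnant sows, where 3.95% and 3.94% of all probe sets were called. In Landrace sows 8 were higher and 3 lower, where 2.22% and 2.93% were.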
